A study of Mus musculus with 6 samples.

Results

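Wnt pathway factors are described here as 10 genes: the 4 TCF/LEF transcription factors Tcf7, Lef1, Tcf7l1 and Tcf7l2, beta-catenin (Ctnnb1), the destruction complex genes Axin1, Axin2, Apc and Gsk3b, and the co-receptor Lrp6. They were taken from the deposited table by gene symbol. All 10 were found among its 55487 genes, and all 10 passed the filter on low counts, which left 15419 genes. The table held 6 RNA-seq libraries from mouse bone marrow, of cells given as LT-HSCs, the long-term haematopoietic stem cells that renew the blood for life. All were of the genotype labelled Mmrn1-GFP type, which the Mmrn1-low and the Mmrn1-high cells shared. Multimerin 1, which Mmrn1 encodes, is a protein of platelets and endothelium, and GFP is green fluorescent protein. Each group had 3 libraries. The age, sex and strain of the mice, the surface gate and the construct are not given in the labels. Nor do they say whether replicates came from separate mice, so the p-values cover the spread of these libraries alone, which may be technical.

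In the canonical Wnt pathway a secreted Wnt ligand binds a Frizzled receptor together with LRP5 or LRP6. Without ligand, the destruction complex of axin, APC, GSK3 and casein kinase 1 marks beta-catenin for degradation. With ligand the complex is held back, beta-catenin enters the nucleus and binds TCF/LEF proteins at target genes, where Groucho/TLE proteins otherwise repress transcription. Axin2 is itself a widely used target gene of the pathway and acts as negative feedback. In blood, Tcf7 (which encodes TCF1) and Lef1 are best known from early T cell and B cell development, and both also act outside the Wnt pathway.

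Libraries held between 11595104 and 30909990 counts, with Mmrn1-low replicate 3 and Mmrn1-high replicate 2 the deepest. Levels are CPM, counts relative to the library total, scaled by TMM factors, which correct the library total for composition, and 3 counts corresponded to between 0.0925 and 0.245 CPM. Differences are log2 fold changes, Mmrn1-high minus Mmrn1-low, from the edgeR quasi-likelihood test with its standard error (SE), and the threshold for a call was an adjusted p (Benjamini-Hochberg) of 0.05. Of the 13 genes listed as LT-HSC markers, all were tested and 12 were higher in Mmrn1-high cells, with a summed level of 458 to 487 CPM in the Mmrn1-low and 788 to 829 CPM in the Mmrn1-high libraries. Of 5 progenitor genes that LT-HSC gates commonly leave out (Cd48, Flt3, Cd34, Dntt and Il7r), all 5 were also higher, at 689 to 717 and 2059 to 2106 CPM. Over all genes tested, 30.7% were higher in Mmrn1-high cells. The makeup of the cells was not measured. Mmrn1 itself, the gene the groups are named for, was higher in the Mmrn1-high libraries, with a log2 fold change of 0.82 ± 0.12 SE (edgeR adjusted p = 0.000485).

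Tcf7, Lef1, Tcf7l2 and Axin2 were higher in Mmrn1-high cells, by about 2.14-fold (Lef1) to 3.07-fold (Tcf7). Beta-catenin, Axin1, Apc, Gsk3b, Lrp6 and Tcf7l1 were not called, and no factor was called lower. In the test across all genes 61.2% of genes were called, 30.7% as higher and 30.5% as lower in Mmrn1-high cells. The 4 of 10 factors called, all of them higher, are to be read against those shares. The factors were chosen with earlier results of these data known. With scaling by library size alone, 66.0% of all calls were higher against 50.2% with TMM factors, and the median of all genes moved from 0.0054 to 0.15. The median log2 fold change of the 10 factors was 0.74. For 6 of the 10 factors no library of a group overlapped the other group, 5 with Mmrn1-high above and 1, Lrp6, with Mmrn1-high below, where the shares over all genes tested were 67.8%, 34.1% and 33.7%. In these bulk libraries, fewer cells of a type and less RNA per cell cannot be told apart.

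**Figure D1:**
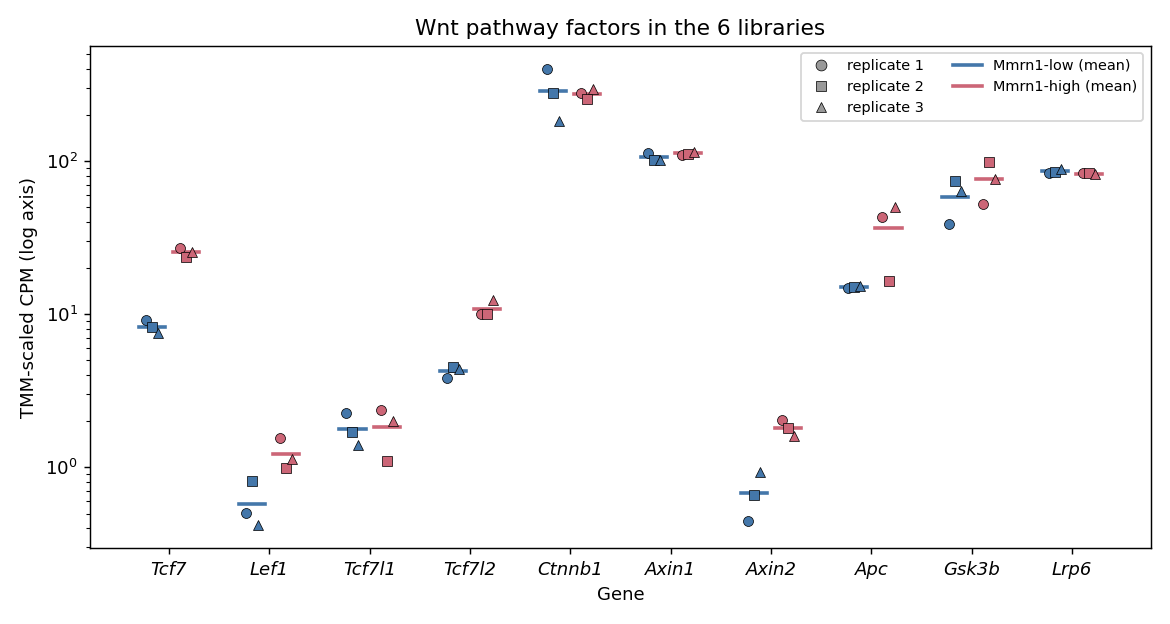
TMM-scaled CPM (log axis) of the 10 factors (x axis) in the 3 Mmrn1-low and 3 Mmrn1-high libraries. Symbols are libraries by replicate number and lines are group means. Tcf7, Lef1, Tcf7l2 and Axin2 have Mmrn1-high libraries above all Mmrn1-low ones, while Apc in Mmrn1-high replicate 2, at 16.6 CPM, lies near the Mmrn1-low libraries.

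Among the TCF/LEF factors, Tcf7 (chromosome 11, 52252371 to 52283331, GRCm38) had the largest difference of the 10 genes. Its level was 9.20, 8.26 and 7.53 CPM in Mmrn1-low replicates 1 to 3 and 27.3, 23.6 and 25.7 CPM in Mmrn1-high replicates 1 to 3. The groups lay far apart, since the lowest Mmrn1-high library was more than double every Mmrn1-low one. The mean rose from 8.33 ± 0.840 to 25.5 ± 1.84 CPM (SD, n = 3). On the log2 scale the difference was 1.62 ± 0.10 SE (edgeR adjusted p = 3.59e-06) and lay at the 95.95th percentile of all genes tested.

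Tcf7l2 (chromosome 19, 55741820 to 55933654), whose protein TCF4 is the main TCF factor of the intestinal epithelium, was at 3.87, 4.50 and 4.39 CPM in the Mmrn1-low libraries, against 10.1, 10.1 and 12.4 CPM in the Mmrn1-high ones. All 3 Mmrn1-high libraries were again above all 3 Mmrn1-low ones. Its log2 fold change was 1.35 ± 0.13 SE (adjusted p = 3.77e-05).

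Lef1 (chromosome 3, 131110471 to 131224356) was close to the detection floor. It had 8, 11 and 12 counts in the Mmrn1-low and 19, 32 and 17 counts in the Mmrn1-high libraries, or 0.508, 0.812 and 0.418 CPM and 1.55, 0.987 and 1.14 CPM. The groups did not overlap, but the gap between 0.812 and 0.987 CPM was small. The log2 fold change of 1.10 ± 0.33 SE (adjusted p = 0.0204) missed the threshold without Mmrn1-low replicate 1 (adjusted p = 0.0540), without Mmrn1-low replicate 3 (0.0919), without Mmrn1-high replicate 1 (0.0578) and in DESeq2 (0.0828). Over all alternative fits at the threshold of 0.05, Lef1 was called in 10 of 15, at adjusted p from 0.0117 to 0.0919. It was not called at the stricter threshold of 0.01. Gm43352, an antisense gene model that shares 1208 bases (13.7%) with its exons, had 10 counts in Mmrn1-high replicate 2 and 0 in the other 5 libraries.

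Tcf7l1 (chromosome 6, 72626378 to 72789254), which encodes TCF3, the family member known mainly as a repressor, did not pass the test. Its levels were 2.28, 1.70 and 1.39 CPM in the Mmrn1-low and 2.37, 1.11 and 2.01 CPM in the Mmrn1-high libraries, and the groups overlapped throughout. The difference on the log2 scale was −0.03 ± 0.33 SE (adjusted p = 0.940), with a 95% interval from −0.79 to 0.73, and it was above 0 once library size alone set the scale (0.11). It had 23 to 40 counts per library, and the 95% counting intervals of Mmrn1-high replicate 1, at 1.59 to 3.40 CPM, and replicate 2, at 0.777 to 1.54 CPM, did not overlap. Gm15401, a gene model that shares 179 bases (4.56%) with its exons, had 22, 10 and 33 counts in Mmrn1-low and 0, 0 and 3 counts in Mmrn1-high libraries.

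Sequences before start sites of 3 called factors are shown because TCF/LEF proteins bind the core CTTTGAT and its reverse complement, and Axin2, Lef1 and Tcf7 are themselves known as target genes of the pathway. RefSeq promoter windows (GRCm38.p6) were matched for 7 of the 10 factors, as 13 start sites, and the 250 bases before each were searched on both strands. The core CTTTGAT was in 0 of these 13 windows, against 3.21% of 32851 windows of the same length over all genes. The shorter CTTTGA, which lies within the first motif, was in 2 of 13 windows, 1 each of Lef1 and Gsk3b, against 13.8% over all genes. The Lef1 window lies inside the gene, in an intron in GENCODE M21, before a downstream start site (chr3:131156044-131156293, plus strand). Its matches begin 180 and 120 bases before that start, and the other 3 windows of Lef1 have none. The windows of Axin2 (chr11:108920099-108920348, plus strand) and of the first start of Tcf7l2 (chr19:55741560-55741809, plus strand) have no match. The 2 windows of Tcf7, which are not shown, have none either. They lie inside the coordinates deposited for that gene, which differ from those in GENCODE M21. Capitals mark the shorter motif, read here as its reverse complement.
Lef1: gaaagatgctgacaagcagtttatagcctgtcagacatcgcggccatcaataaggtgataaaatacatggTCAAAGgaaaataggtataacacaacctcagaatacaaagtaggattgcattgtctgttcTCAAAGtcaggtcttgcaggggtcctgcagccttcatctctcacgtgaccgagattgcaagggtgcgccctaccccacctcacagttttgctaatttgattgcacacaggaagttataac
Axin2: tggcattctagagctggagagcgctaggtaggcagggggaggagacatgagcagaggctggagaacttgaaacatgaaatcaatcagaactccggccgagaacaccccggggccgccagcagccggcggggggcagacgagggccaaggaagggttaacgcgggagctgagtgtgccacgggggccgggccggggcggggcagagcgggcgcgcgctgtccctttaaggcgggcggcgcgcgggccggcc
Tcf7l2: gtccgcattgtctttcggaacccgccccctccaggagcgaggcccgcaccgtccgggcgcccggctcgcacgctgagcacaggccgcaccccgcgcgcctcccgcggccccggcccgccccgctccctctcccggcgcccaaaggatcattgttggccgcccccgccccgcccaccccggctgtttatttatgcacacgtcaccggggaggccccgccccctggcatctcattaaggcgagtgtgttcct
A match is a description of these letters only, and no binding was measured.

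The makeup of the TCF/LEF transcripts was compared next, as the share of each of the 4 genes within a library. Levels of different genes are compared per length, with the authors' FPKM (counts scaled by gene length and library total). On that scale Tcf7 made up 78.9%, 78.6% and 80.2% of the summed FPKM of the 4 genes in Mmrn1-low and 87.5%, 89.6% and 87.1% in Mmrn1-high libraries. The groups did not overlap, with means of 79.2 ± 0.881% and 88.1 ± 1.35% (SD, n = 3; exact permutation p = 0.10, two-sided, the smallest that 3 against 3 can give). The share of Tcf7l1 went from 12.3 ± 1.79% to 4.55 ± 1.30% (exact permutation p = 0.10), also without overlap. Tcf7l1 itself was at 0.332 ± 0.0831 FPKM in Mmrn1-low and 0.376 ± 0.134 FPKM in Mmrn1-high cells. Its share was thus smaller because the sum of the 4 genes was larger, not because Tcf7l1 fell. The shares of Lef1, at 2.23 ± 0.775% and 1.70 ± 0.276%, and Tcf7l2, at 6.19 ± 1.06% and 5.68 ± 0.722%, overlapped between the groups (exact permutation p = 0.40 and 0.50). A share within a library does not depend on the scaling between libraries.

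**Figure D2:**
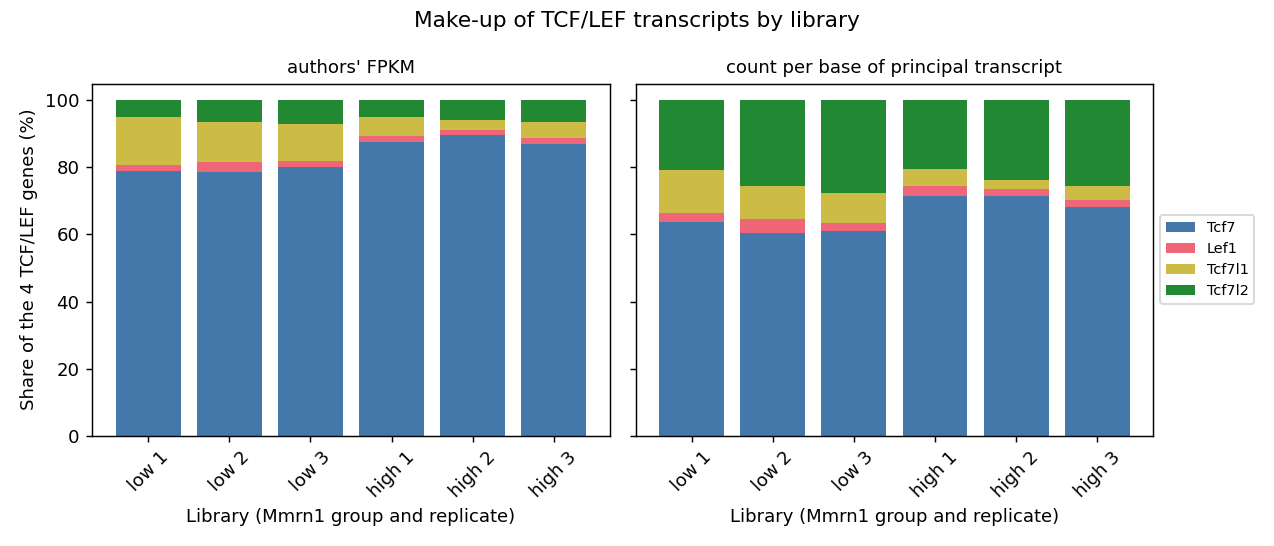
Share of each TCF/LEF gene (y axis, %) in the sum of the 4 genes, by library (x axis). The left panel uses the authors' FPKM and the right panel counts per base of the longest principal transcript. Tcf7 is the largest part in every library. The share of Tcf7l1 is smaller in all 3 Mmrn1-high libraries than in all 3 Mmrn1-low ones, on both scales, though its own level was not called.

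The gene lengths behind the FPKM values bear on these shares. The length implied for Tcf7l2 was 24767 bases, against 3193 bases for its longest principal coding transcript in GENCODE M21, and for Tcf7 3746 against 2471 bases. With counts divided by those transcript lengths, an alternative chosen after the data were seen, Tcf7l2 held 24.6 ± 3.44% and 23.2 ± 2.46% of the family in Mmrn1-low and Mmrn1-high cells, and Tcf7 61.7 ± 1.88% and 70.4 ± 1.96%. The order of Tcf7l2 and Tcf7l1 within Mmrn1-low cells thus depended on the length used. The higher share of Tcf7 in Mmrn1-high cells did not. It follows from Tcf7 having the largest fold change of the family, whatever the lengths, and adds nothing to that fold change.

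Beta-catenin, the protein that carries the signal to the nucleus and also links cadherins to the cytoskeleton, did not pass the test. Ctnnb1 (chromosome 9, 120929216 to 120960507) was at 403, 282 and 185 CPM in the Mmrn1-low and 279, 256 and 297 CPM in the Mmrn1-high libraries. The Mmrn1-high libraries lay close together, within the much wider range of the Mmrn1-low ones. The log2 fold change was −0.06 ± 0.31 SE (adjusted p = 0.885), with a 95% interval from −0.90 to 0.78, and it was above 0 once library size alone set the scale (0.088). Replicate spread, not depth, limited this comparison: the 3 Mmrn1-low libraries had 3816 to 6353 counts, and their 95% counting intervals, the nearest of which were 180 to 190 and 273 to 291 CPM, did not overlap. The highest Mmrn1-low library was 2.18 times the lowest, a ratio reached by 0.554% of the 1445 genes within 2-fold of its mean level. Ulk4, transcribed from the other strand, and the microRNA gene Mir7090 share 782 bases (15.1%) with its exons in GENCODE M21. They were listed at 14 to 46 and at 1 or 2 counts per library.

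Of the destruction complex genes, Axin2 alone was called. Axin1 and Axin2 are related scaffold proteins, of which Axin1 is broadly expressed and Axin2 is induced by the pathway. Axin2 (chromosome 11, 108920349 to 108950783) was at 0.444, 0.664 and 0.941 CPM in Mmrn1-low libraries, from 7, 9 and 27 counts, and at 2.04, 1.82 and 1.61 CPM in Mmrn1-high libraries, from 25, 59 and 24 counts. The groups did not overlap, and the level was low in both. On the log2 scale Axin2 differed by 1.32 ± 0.28 SE (adjusted p = 0.00370), and Axin2 was called in each of the 15 alternatives that tested it.

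Axin1 (chromosome 17, 26138688 to 26195811), the scaffold that is not known as a target gene, was at 114, 103 and 102 CPM in the Mmrn1-low and 111, 112 and 116 CPM in the Mmrn1-high libraries. The groups overlapped in 1 library, Mmrn1-low replicate 1. The log2 fold change of 0.084 ± 0.048 SE missed the threshold (adjusted p = 0.165) but passed it without that library (0.14, adjusted p = 0.0150), with scaling by library size alone (0.23, adjusted p = 0.00273) and with a filter of 5 CPM (0.13, adjusted p = 0.0418). Axin2 made up 0.388 ± 0.157% of the summed FPKM of the pair in Mmrn1-low and 0.961 ± 0.133% in Mmrn1-high cells (exact permutation p = 0.10, the smallest possible). Nearly all axin transcripts were thus Axin1 in both groups.

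Apc (chromosome 18, 34220924 to 34322552) encodes the large scaffold that is lost in most colorectal tumours. It was at 14.9, 15.1 and 15.4 CPM in the Mmrn1-low and 43.5, 16.6 and 50.05 CPM in the Mmrn1-high libraries. The Mmrn1-low libraries were nearly equal, and Mmrn1-high replicate 2 lay just above them, far below the other Mmrn1-high libraries. The log2 fold change of 1.26 ± 0.46 SE missed the threshold (adjusted p = 0.0702). Without Mmrn1-high replicate 2 it was 1.65 ± 0.084 SE (adjusted p = 4.50e-06), and DESeq2 called the gene with all libraries (1.28, adjusted p = 0.0131). The low value came from 537 counts, with a 95% counting interval of 15.2 to 18.0 CPM, against 39.9 to 47.3 and 46.5 to 53.8 CPM in the other Mmrn1-high libraries. A ratio of 3.02 between the highest and the lowest Mmrn1-high library was reached by 1.05% of the 4590 genes within 2-fold of its mean level.

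Mmrn1-high replicate 2 was not alone in holding such genes. Of 10112 genes with a mean of at least 10 CPM, 35 were at least 2-fold lower there than in both other Mmrn1-high libraries and 12 at least 2-fold higher. In the other 5 libraries these numbers were 22 to 43 and 16 to 32. Mmrn1-high replicate 2 and Mmrn1-low replicate 3 were also the deepest libraries. Between these 2 the log2 ratio of Apc was 0.10, and between the means of the 4 shallower libraries it was 1.64. The same values were 1.65 and 1.60 for Tcf7, 1.20 and 1.43 for Tcf7l2, 0.95 and 1.72 for Axin2 and 1.24 and 1.03 for Lef1. For the 4 called factors the groups did not overlap, so any split by depth had to show them higher in Mmrn1-high cells. The deep class had 1 library a group and so no test. In the 4 shallower libraries alone Lef1 missed the threshold (adjusted p = 0.0712).

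Gsk3b (chromosome 16, 38089001 to 38246084), the kinase that phosphorylates beta-catenin and many other proteins, was at 38.8, 73.9 and 64.2 CPM in the Mmrn1-low and 52.8, 99.5 and 76.7 CPM in the Mmrn1-high libraries. The groups overlapped, and replicate 1 was the lowest of its group in both. Its difference on the log2 scale was 0.38 ± 0.36 SE (adjusted p = 0.411), with a 95% interval from −0.56 to 1.32. Within-group ratios of the highest to the lowest library were 1.91 and 1.88, reached by 2.23% and 2.38% of 4792 genes of like level.

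Lrp6 (chromosome 6, 134446476 to 134566965), the co-receptor that binds Wnt ligands beside Frizzled, varied less between the Mmrn1-high libraries than any other factor, with a coefficient of variation of 0.395%. Its levels were 84.1, 85.7 and 89.1 CPM in the Mmrn1-low and 83.7, 83.4 and 83.0 CPM in the Mmrn1-high libraries. All Mmrn1-high libraries were below all Mmrn1-low ones, but the log2 fold change was −0.051 ± 0.038 SE (adjusted p = 0.283) and was above 0 once library size alone set the scale (0.098). Its 95% interval from −0.14 to 0.037 was the narrowest of the 10 factors.

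**Figure D3:**
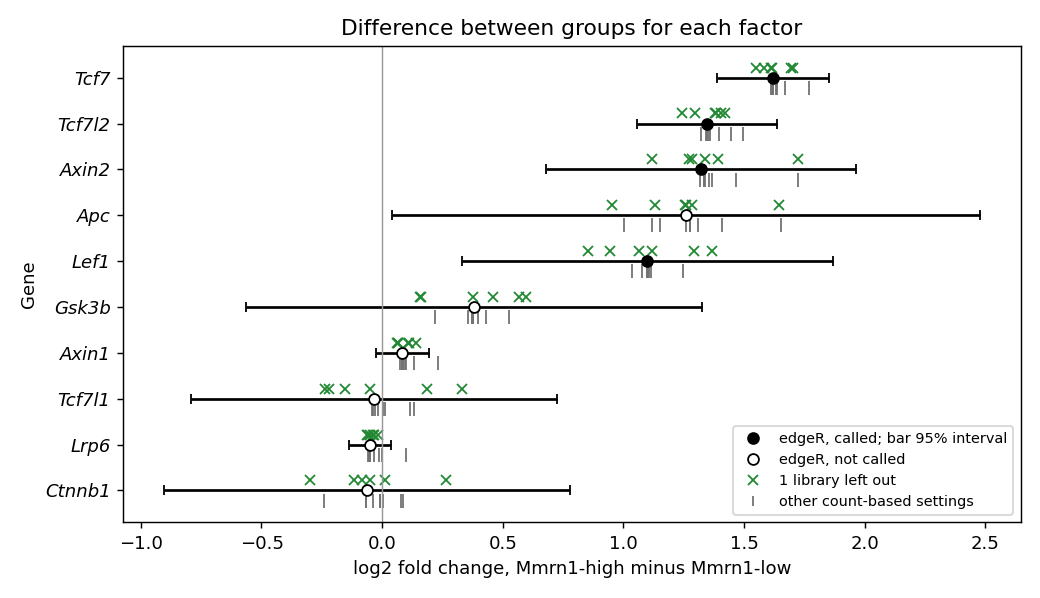
Log2 fold change, Mmrn1-high minus Mmrn1-low (x axis), of each factor (y axis). Circles with 95% intervals are the edgeR test, filled where called, crosses leave out 1 library each and ticks are the other settings that use counts. Tcf7, Tcf7l2 and Axin2 stay well above 0 in all of these, Apc moves to 1.65 without Mmrn1-high replicate 2, and the intervals of Ctnnb1 and Gsk3b are wide.

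Per length, the order of the factors was partly the same in both groups. Ctnnb1 was highest, at 23.7 ± 8.89 and 25.2 ± 1.83 FPKM (SD, n = 3) in Mmrn1-low and Mmrn1-high cells, followed by Axin1 at 19.6 ± 1.12 and 23.0 ± 0.451 FPKM, and the libraries of these neighbours overlapped in both groups. In Mmrn1-low cells Lrp6 (5.25 ± 0.169 FPKM) and Gsk3b (4.89 ± 1.51 FPKM) came next and overlapped, and Tcf7 followed at 2.11 ± 0.207 FPKM, without overlap with either neighbour. In Mmrn1-high cells Tcf7, at 7.17 ± 0.538 FPKM, stood level with Gsk3b (7.00 ± 2.13 FPKM), whose libraries also overlapped those of Lrp6 (5.62 ± 0.0416 FPKM). Apc was at 0.462 ± 0.00884 and 1.24 ± 0.6005 FPKM. The remaining 4 factors were below 0.525 FPKM in every library, with Lef1 at 0.0594 ± 0.0211 and 0.139 ± 0.0338 FPKM, and its libraries overlapped those of Axin2 in Mmrn1-low cells. By principal transcript length Ctnnb1, at 75.9 ± 28.4 and 80.5 ± 5.84 counts on the same scale, no longer overlapped Axin1, at 26.7 ± 1.53 and 31.4 ± 0.615, Tcf7l2 ranked above Apc in both groups, and Axin2 and Lef1 overlapped in both. FPKM carried no TMM factors, so these values compare genes within a group.

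The rest of the pathway was covered by 143 genes in 9 role lists, all found in the table, of which 21 had no count in any library and 84 were tested. Of these 84, 45 were higher and 16 lower in Mmrn1-high cells and 23 were not called, with a median log2 fold change of 0.17 against 0.0054 over all genes. With scaling by library size alone 55 were higher and 10 lower. The shares of all genes tested were 30.7% higher and 30.5% lower. The lists were chosen with earlier results of these data known, so these counts and those of each list below are a description only.

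**Figure D4:**
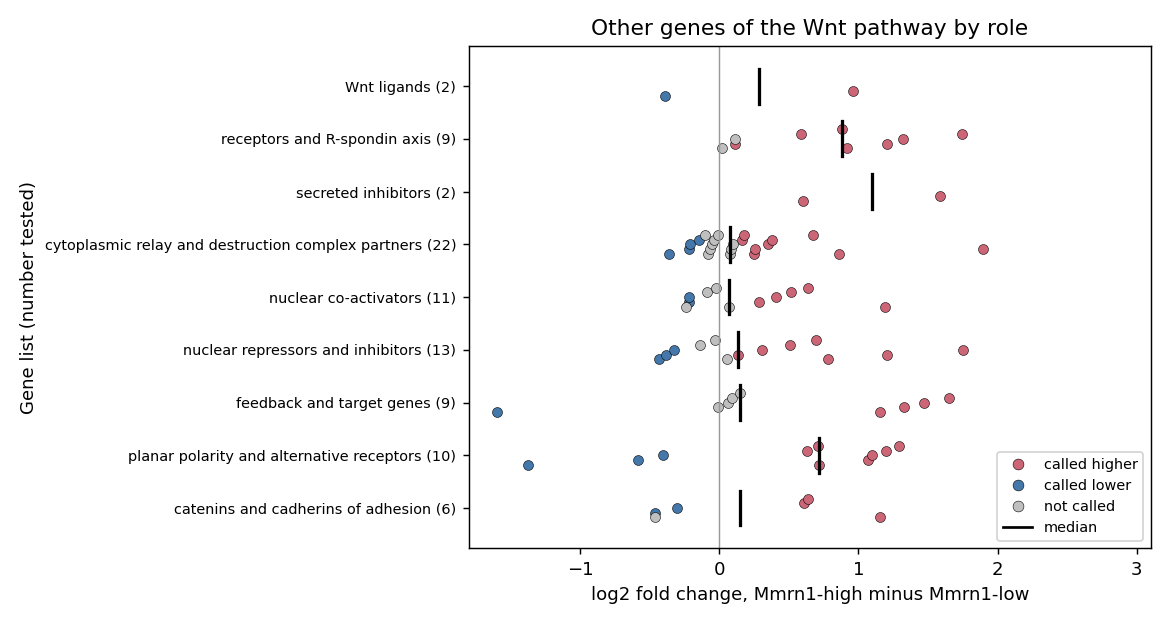
Log2 fold change, Mmrn1-high minus Mmrn1-low (x axis), of the 84 tested genes of the wider pathway, by role list with the number tested (y axis). Points are genes, coloured by call, and bars are list medians. The 9 receptor genes all lie above 0, while the relay, co-activator and repressor lists have genes on both sides.

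Wnt ligands were at or near the detection floor. Of the list of 19 ligands plus Porcn and Wls, 11 ligands had no count in any library and no ligand passed the filter. The highest, Wnt5b, Wnt6 and Wnt10b, had 47, 41 and 46 counts over all 6 libraries. Wls, the carrier that secretes Wnt proteins, fell, from 90.5 ± 1.56 to 69.1 ± 1.10 CPM (SD, n = 3; −0.39 ± 0.037 SE on the log2 scale, edgeR adjusted p = 4.43e-05). Porcn, the enzyme that attaches the lipid Wnt proteins need, was higher, at 0.498 ± 0.107 and 0.975 ± 0.0883 CPM (0.96 ± 0.27 SE).

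Of 9 tested genes of receptors and the R-spondin axis, 7 were higher and 0 lower, with a median of 0.88. Fzd6, a Frizzled receptor, rose from 11.0 ± 1.11 to 27.2 ± 0.751 CPM (1.32 ± 0.088 SE), Fzd8 from 1.65 ± 0.278 to 5.62 ± 0.426 CPM (1.75 ± 0.16 SE) and Fzd9 from 0.664 ± 0.0948 to 1.48 ± 0.0917 CPM (1.20 ± 0.23 SE). Both secreted or membrane inhibitors that were tested rose: Kremen1, a Dickkopf co-receptor, by 0.60 ± 0.079 SE and the secreted Wnt antagonist Sfrp1 by 1.59 ± 0.47 SE, at only 0.896 ± 0.111 CPM in Mmrn1-high cells.

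Among 22 tested genes of the cytoplasmic relay and partners of the destruction complex, 9 were higher and 4 lower, with a median of 0.079. Csnk1e, a casein kinase 1 isoform, rose from 66.6 ± 3.35 to 121 ± 2.49 CPM (0.86 ± 0.046 SE) and Apc2, a relative of Apc, from 0.582 ± 0.0564 to 2.13 ± 0.215 CPM (1.89 ± 0.21 SE). The lower genes were the ubiquitin ligase subunit Fbxw11 (−0.36 ± 0.041 SE), the tankyrase Tnks, which promotes degradation of axin (−0.22 ± 0.034 SE), the phosphatase subunit Ppp2ca (−0.21 ± 0.026 SE) and Gsk3a (−0.15 ± 0.040 SE). Each of those 4 changed by at most 1.28-fold, and the size depended on the scaling. In FPKM, without TMM factors, Mmrn1-low and Mmrn1-high means were 14.9 and 12.9 for Fbxw11 and 5.90 and 5.61 for Tnks. They were 41.6 and 39.9 for Ppp2ca and 37.95 and 37.93 for Gsk3a.

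Nuclear co-activators had 5 higher and 2 lower genes of 11, with a median of 0.070. Bcl9 (0.52 ± 0.051 SE) and Bcl9l, at 27.6 ± 1.254 and 63.3 ± 7.45 CPM (1.19 ± 0.087 SE), both bridge beta-catenin to Pygopus. Kmt2a (0.64 ± 0.029 SE), Crebbp (0.40 ± 0.032 SE) and Tbl1x (0.28 ± 0.031 SE) rose as well, and Smarca4 (−0.22 ± 0.031 SE) and Cdc73 (−0.22 ± 0.043 SE) fell. Without TMM factors these 2 falls were smaller, with mean FPKM of 40.6 and 38.7 for Smarca4 and 4.18 and 3.97 for Cdc73. Pygo2, at −0.087 ± 0.050 SE, did not pass the test.

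Nuclear repressors and inhibitors had 7 higher and 3 lower genes of 13, with a median of 0.14. Tle2, a Groucho-type repressor that binds TCF/LEF proteins, rose from 3.33 ± 0.427 to 11.1 ± 0.296 CPM (1.75 ± 0.12 SE). Ctnnbip1, whose protein ICAT blocks the contact of beta-catenin with TCF/LEF, rose from 6.52 ± 0.318 to 15.0 ± 0.222 CPM (1.20 ± 0.085 SE), and the repressor Hbp1 rose by 0.69 ± 0.046 SE. Tle1 (−0.33 ± 0.076 SE), the co-repressor Ctbp2 (−0.38 ± 0.066 SE) and Cby1 (−0.43 ± 0.10 SE), a beta-catenin antagonist, fell. Genes that promote and genes that oppose beta-catenin were thus among the higher ones.

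Of 20 genes listed as feedback or target genes, 9 were tested, 4 higher and 1 lower, with a median of 0.15. Ccnd1, the cyclin D1 gene, rose from 13.1 ± 0.734 to 36.4 ± 2.23 CPM (1.47 ± 0.076 SE), and Jun, also an immediate early gene, from 551 ± 22.6 to 1386 ± 16.5 CPM (1.33 ± 0.033 SE). Apcdd1 (1.65 ± 0.21 SE), a membrane inhibitor of the pathway, and Znrf3 (1.15 ± 0.15 SE), a ligase that removes Frizzled from the membrane, rose. Rnf43, the close relative of Znrf3, fell from 2.14 ± 0.317 to 0.693 ± 0.106 CPM (−1.60 ± 0.22 SE). Myc, at 0.15 ± 0.086 SE, and Cd44, at 0.060 ± 0.039 SE, did not pass the test. The target genes Lgr5 and Nkd1 had 24 and 35 counts over all 6 libraries and were not tested.

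Planar polarity genes and alternative receptors had 7 higher and 3 lower genes of 10, with a median of 0.71. Vangl2, a core planar polarity protein, rose from 12.4 ± 1.22 to 30.3 ± 1.32 CPM (1.29 ± 0.087 SE), while the formin Daam1 fell from 34.6 ± 1.68 to 13.4 ± 0.320 CPM (−1.37 ± 0.066 SE) and Celsr1 (−0.59 ± 0.045 SE) and Scrib (−0.40 ± 0.062 SE) fell. Of 6 tested genes listed as catenins and cadherins, with Ctnnbl1 included for its catenin-like name only, 3 were higher and 2 lower. Jup, which encodes gamma-catenin, the closest relative of beta-catenin, rose from 9.34 ± 0.355 to 20.8 ± 1.801 CPM (1.16 ± 0.090 SE), and Ctnna1 (0.61 ± 0.059 SE) and Cdh1 (0.64 ± 0.22 SE) rose. Ctnnd1 (−0.46 ± 0.045 SE) and Ctnnbl1 (−0.31 ± 0.048 SE) fell.

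Most tested genes of the T, natural killer and B cell marker lists were higher in Mmrn1-high cells, as were Tcf7 and Lef1. Of 20 T and natural killer cell genes, 13 were tested and 11 were higher in Mmrn1-high cells, and their summed level was 41.2 to 46.1 CPM in the Mmrn1-low and 121 to 127 CPM in the Mmrn1-high libraries. Most of that sum was Lck, at 10.2 ± 0.614 and 37.5 ± 1.51 CPM, Thy1, at 14.4 ± 0.951 and 33.01 ± 3.46 CPM, and Lat, at 7.46 ± 0.570 and 27.0 ± 0.240 CPM. Of the 7 T cell receptor complex genes in the list, 3 were higher and 4 (Cd3d, Cd3e, Cd3g and Trac) did not pass the filter on low counts. Trbc1, a constant region of the receptor's beta chain, rose from 0.277 ± 0.243 to 3.71 ± 0.268 CPM (3.46 ± 0.37 SE), and its near-identical copy Trbc2 from 0.704 ± 0.118 to 2.16 ± 0.440 CPM (1.64 ± 0.25 SE), so that reads could be split between them. Cd247, the CD3 zeta gene, rose from 0.848 ± 0.244 to 2.73 ± 0.651 CPM (1.65 ± 0.27 SE). Cd3e was at 0.127 to 1.03 CPM in the Mmrn1-low and 0.268 to 0.709 CPM in the Mmrn1-high libraries, and Cd3g at 0.190 to 0.664 and 0.245 to 0.647 CPM. None of the 20 genes was listed at 0 in all libraries of a group. Of 13 B cell genes, 12 were tested and 10 were higher, with sums of 39.5 to 44.0 and 66.1 to 67.0 CPM. These counts stand beside the 30.7% of all genes tested that were higher. The part of lymphoid cells in the values of Tcf7 and Lef1 was not tested.

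Summed levels of genes listed as markers of other marrow cells also lay apart between the groups. Summed levels of 10 macrophage genes were 224 to 227 CPM in the Mmrn1-low and 33.05 to 34.7 CPM in the Mmrn1-high libraries, with all 8 tested genes lower and Marco at 0 in the Mmrn1-high libraries. The 5 granulocyte progenitor genes in the table, all called lower, summed to 22853 to 24108 and 3343 to 3419 CPM. Endothelial genes summed to 188.5 to 192 and 294 to 315 CPM, with 5 higher and 3 lower of 9 tested. Tek was in both this list and that of LT-HSC markers, so this sum is not one of other cells alone. Stromal genes summed to 53.6 to 56.5 and 134 to 144 CPM, mostly Pdgfrb, with 2 higher and 3 lower of 5 tested. Among all genes tested, 30.7% were higher and 30.5% lower. The part of these other cells in the values of the Wnt factors was not tested.

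The genes whose profile over the 6 libraries was most like that of Tcf7 were Nlrc3, P2ry10 and Tle2. Likeness was the Euclidean distance between log2 CPM values centred on the gene's mean, and these 3 lay at 0.138, 0.144 and 0.150 from Tcf7. Nlrc3 was at 9.93 CPM in the Mmrn1-low and 30.6 CPM in the Mmrn1-high cells (1.63 ± 0.095 SE on the log2 scale), and P2ry10 at 1.58 and 5.69 CPM (1.84 ± 0.16 SE). With 2 groups of 3 libraries, such a profile is set mainly by the difference between the groups.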

How the data were processed

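RNA-seq libraries of 3 Mmrn1-low and 3 Mmrn1-high samples were analysed from 1 table of the whole series. The labels' protocols describe a poly-A selection, after which stranded paired-end libraries were sequenced on an Illumina NovaSeq. The submitters' processing notes list edgeR, StringTie, HISAT2, CASAVA 1.8 and the build GRCm38, without role or order. The strand setting is not given in these notes, so reads shared with genes on the other strand cannot be told apart. The deposited counts are raw counts per gene and the deposited FPKM values are counts scaled by gene length and library total, per the file headers and the values.

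Counts were tested with edgeR 4.0.16 (R 4.3.3; quasi-likelihood, robust, TMM factors, filterByExpr, group as the only term, adjusted over 15419 genes). The 95% intervals use the test's own degrees of freedom, and counting intervals are exact Poisson intervals, which cover counting error only. The fitting code was run on simulated counts with few changed genes, to check that large changes came back with the right sign. That setting differs from these data, where most genes were called, and gives no error rate for them. GENCODE M21 gave exons and transcripts, and RefSeq the promoter windows. Aes was matched to Tle5 by its Ensembl identifier, and Azu1 was not used here. Members and lists were chosen with earlier results of these data known. Genes named were all members, up to 3 called genes of each list by smallest p with a mean of at least 1 CPM, and every gene in a count of 5 or fewer. Outside this rule, further genes (Pygo2, Myc, Cd44, Lgr5, Nkd1, Wnt5b, Wnt6, Wnt10b and the T cell receptor complex genes) were named after their values were seen. Alternatives were other factors, filters, DESeq2 1.42.0, limma 3.58.1 (voom, and FPKM as log2 with a pseudocount of 1 or 0.1), a replicate block, stricter thresholds and leaving out each library. Library depth and transcript lengths were added after the data were seen. Figures used Python 3.11.15 with matplotlib.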

Additional observations from a re-analysis of the deposited data

How the results depend on the processing

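Tcf7, Tcf7l2 and Axin2 kept their direction and call in every alternative that tested them (18, 16 and 15 alternatives). With a library left out the log2 fold changes ranged from 1.55 to 1.70 for Tcf7, 1.24 to 1.42 for Tcf7l2, 1.12 to 1.72 for Axin2, 0.85 to 1.37 for Lef1, 0.95 to 1.65 for Apc, 0.15 to 0.60 for Gsk3b, 0.060 to 0.14 for Axin1, −0.061 to −0.018 for Lrp6, −0.24 to 0.33 for Tcf7l1 and −0.30 to 0.26 for Ctnnb1, and 3 to 5 factors were called, all higher. The wider pathway then had 39 to 45 higher and 15 to 17 lower genes, and the shares of Tcf7 and Axin2 differed by 8.08 to 9.35 and 0.495 to 0.652 percentage points. Lef1 lost its call in DESeq2 (1.10), in the 4 shallower libraries (1.04) and at the stricter threshold of 0.01. Apc passed in DESeq2 (1.28) and in the 4 shallower libraries (1.65). Axin1 passed with library size alone (0.23), with the 5 CPM filter (0.13) and with FPKM at a pseudocount of 1 (0.22, with or without the filter) or 0.1 (0.23). The sign of Tcf7l1, Ctnnb1 and Lrp6, which were not called, turned positive with library size alone (0.11, 0.088 and 0.098). That of Tcf7l1 also did so in the 4 shallower libraries (0.13), in DESeq2 (0.0031) and with unfiltered FPKM (0.044), that of Ctnnb1 with voom (0.077) and FPKM (0.14 with or without the filter, 0.15 at a pseudocount of 0.1), and that of Lrp6 with FPKM (0.083 with or without the filter, 0.097 at 0.1). The FPKM filter tested only 5 factors and called 2, both higher, Tcf7 and Axin1. Lower genes of the wider pathway numbered 10 with library size alone, 8 with filtered FPKM at either pseudocount and 9 without the filter. Where calls also had to pass 1 in absolute size on the log2 scale, 17 higher and 2 lower genes were left. TMM factors were 0.947 to 0.952 in the Mmrn1-low and 1.05 to 1.06 in the Mmrn1-high libraries. Neither scaling by library size alone nor FPKM carried them. The cause of the other changes was not tested, except that a filter on low values leaves fewer genes to test.

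Same-numbered libraries of the 2 groups did not deviate together over all genes (correlations of 0.043, −0.079 and 0.029 for replicates 1 to 3). The labels do not say whether the numbers pair the libraries. Deviations from means of 3 libraries cannot settle it. With the replicate number as a block, Gsk3b passed the threshold (0.38, edgeR adjusted p = 0.00247), 5 factors were called and the signs of Tcf7l1 (0.012) and Ctnnb1 (0.0035) turned positive. The block gave 8923 calls over all genes, against 9438. Depth limits Lef1 and Axin2, at 7 to 59 counts a library, and for Ctnnb1, Apc and Gsk3b the spread between libraries is the larger limit. Tcf7l1 had few counts, and within a group its counting intervals lay apart only between Mmrn1-high replicates 1 and 2. Ratios of highest to lowest library as large were reached by 31.5% of genes of like level in Mmrn1-low and 8.16% in Mmrn1-high libraries.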
